A study of Homo sapiens with 6 samples.

Results

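The 3 solvent controls of the experiment carry 2 deposited sets of expression values, and the baselines of these sets were laid side by side gene by gene. The controls were cells labelled Huh7, a human hepatocellular carcinoma line, kept for 24 h in DMSO alone, and they are 3 of the 6 samples of the study; the other 3 samples received sorafenib for the same time and are not used. Each control has a column of probe signals from an Illumina expression beadchip, called a signal array here, and a column in a table of normalized values, called a table column. No drug or allele other than the DMSO solvent is named for these samples. The labels do not say whether the 3 controls were separate cultures, so the spread between them may be technical.

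The columns were chosen by their labels, not by their values, and every one of the 47323 probes measured in both sets entered the comparison. The 2 sets are not measurements of the same arrays. Across the 17986 kept probes, which are not independent replicates, Pearson's r was 0.863 to 0.867 between the signal array and the table column of the same control number, and 0.860 to 0.866 between different numbers. Within a set it was 0.993 to 0.996 for the signal arrays and 0.993 to 0.995 for the table columns. The 2 sets were normalized separately, so every difference below describes separately scaled values, and no test was run between them.

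Liver cells are known by what they secrete: albumin, apolipoproteins, clotting factors and transport proteins make up much of their output, and alpha-fetoprotein returns when a liver tumour takes on a fetal program. Liver cancers differ in which growth pathways are active. Beta-catenin, the transducer of WNT signals, turns on a set of targets that includes its own inhibitors, and those targets are a common readout of the pathway. Progenitor and biliary markers such as CD24, CD44 and PROM1 mark tumour cells with less mature features.

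Levels are log2 values, and a difference is the mean of the 3 signal arrays minus the mean of the 3 table columns. A detection p under 0.01 on the signal arrays corresponded to a level of 7.40, 7.39 and 7.47 in controls 1, 2 and 3, and their mean of 7.42 served as the detection level in the table. A probe was kept when it reached the level in at least 3 of the 6 columns. It was called when the means differed at least 2-fold and the 3 columns of each set did not overlap. Where a gene reached the level in no column of a set, its fold is a bound, written as "at least". Signals were used without background subtraction, which understates the differences of dim genes. The lowest, median and highest levels over all probes were 6.06, 7.13 and 15.88 on the signal arrays, and 6.08, 7.10 and 15.85 in the table.

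Most genes sat close together in the 2 baselines, and a minority stood far apart. The median absolute difference over kept probes was 0.42, against a median SD between the 3 columns of 0.09 on the signal arrays and 0.10 in the table. Of the 17986 kept probes, 1846 were called higher on the signal arrays, which is 10.3%, and 1409 were called lower, which is 7.83%. With a background correction of the signals alone (limma's neqc), the split was 1331 higher and 4240 lower, and the median difference was -0.29 in place of 0.11. A probe that was kept through only the set where it is high had to differ, so the 13895 probes at the level in all 6 columns give the stricter view: 1182 of them, or 8.51%, were higher and 658, or 4.74%, were lower. Differences of at least 2 log2 units were seen for 955 kept probes, of at least 3 for 396 and of at least 5 for 44. In bulk RNA, fewer cells with a transcript and less transcript per cell cannot be told apart.

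By gene, with the probe of the highest mean level standing for it, 1307 of 11085 named genes (11.8%) were called higher and 1010 (9.11%) lower on the signal arrays. Among the 8988 genes at the level in all 6 columns the counts were 857 (9.53%) and 492 (5.47%). The percentages over all named genes are the background against which each gene group below is read. Of 2776 genes with at least 2 kept probes, 330 had all of them called the same way. Only some of the probes were called for 345 of these genes, and none for 2101. Probes called in opposite directions were seen for 0 genes. Called probes of one gene could still differ in size. With the probe that stands for the gene first, the differences were 4.82 and 1.65 for AKR1C2 and 7.85 and 4.86 for DLK1. They were -4.91 and -1.91 for CD44, and -4.20 and -6.27 for VIM.

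**Figure D1:**
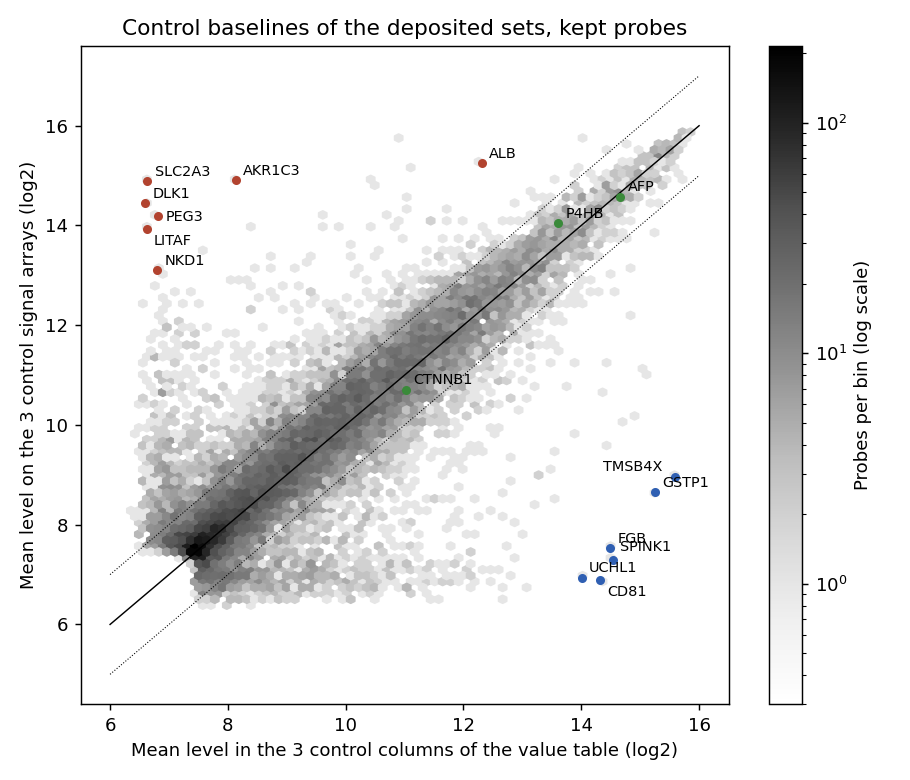
Mean level (log2) on the 3 control signal arrays, on the vertical axis, against the mean of the 3 control columns of the value table, on the horizontal axis, for the 17986 kept probes in hexagonal bins shaded by probe number. The solid line marks equal levels and the dotted lines a 2-fold difference; SLC2A3, DLK1, PEG3, LITAF and NKD1 stand at the upper left, CD81, SPINK1, UCHL1 and FGB at the lower right, and AFP, P4HB and CTNNB1 lie between the dotted lines.

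Most of the genes that parted the baselines furthest were near the top of the range in one set and below the detection level in the other. SLC2A3, a glucose transporter common in brain and tumours, lay at 14.96, 15.05 and 14.64 on the signal arrays, against 6.52, 6.66 and 6.72 in the table, a difference of at least 176-fold. DLK1, an imprinted membrane protein of fetal liver progenitors, lay at 14.31, 14.37 and 14.65 on the signal arrays and at 6.53, 6.59 and 6.67 in the table, at least 130-fold higher on the signal arrays. PEG3, another imprinted gene, stood at 14.36, 14.10 and 14.14, against 6.73, 6.81 and 6.91 (at least 110-fold). For these 3 genes no table column reached the detection level, and all signal arrays were far above it. LITAF, a protein of late endosomes, averaged 13.93 ± 0.06 on the signal arrays and 6.62 ± 0.10 in the table (SD, n = 3 each), at least 91.3-fold higher.

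In the other direction the tetraspanin CD81, a cell surface partner of integrins and a receptor for hepatitis C virus, lay at 6.91, 6.96 and 6.83 on the signal arrays, against 14.27, 14.29 and 14.39 in the table. It was at least 119-fold lower on the signal arrays, none of which reached the detection level. CD81 is known to be present on Huh7 cells and missing from HepG2 cells, so its place below the detection level goes against the Huh7 label of the signal arrays; which line those arrays came from was not tested. SPINK1, a secreted trypsin inhibitor, lay at 7.27, 7.21 and 7.38 on the signal arrays and at 14.57, 14.52 and 14.52 in the table (at least 139-fold lower). UCHL1, a ubiquitin hydrolase best known from neurons, averaged 6.94 ± 0.03 on the signal arrays and 14.01 ± 0.02 in the table, at least 96.3-fold lower. TMSB4X, the actin-binding thymosin beta 4, was detected in both sets, at 9.11, 8.93 and 8.85 on the signal arrays and 15.68, 15.59 and 15.53 in the table, a 99.1-fold difference.

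Further genes among the 15 largest differences in each direction were mostly undetected in one of the sets. Higher on the signal arrays by at least 26.6-fold to at least 39.3-fold were HSPA12A, IGDCC3, EVA1A, THEM6 and CPED1, none of them at the level in any table column. Lower on the signal arrays were WDR72, ATL3, NDN, PI3, FLRT3, HTATIP2 and RPL39L, at no signal array above the level, with bounds from 25.9-fold for FLRT3 to 39.3-fold for WDR72. TRIP6, an adaptor of focal adhesions, reached the level on 1 of 3 signal arrays, with a mean of 7.34 ± 0.19 there and 12.89 ± 0.11 in the table.

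Both baselines carried the marks of hepatocytes, but not the same ones. AFP, the fetal counterpart of albumin, lay at 14.50, 14.59 and 14.63 on the signal arrays and at 14.70, 14.47 and 14.81 in the table, and the columns overlapped. Transferrin (TF) averaged 14.55 ± 0.12 on the signal arrays and 14.53 ± 0.14 in the table, and the keratin KRT8 14.33 ± 0.21 and 14.33 ± 0.11. SERPINA1, the alpha-1 antitrypsin gene, averaged 14.54 ± 0.19 and 13.80 ± 0.13, short of a 2-fold difference. The proteoglycan GPC3, a liver cancer marker, averaged 11.79 ± 0.08 on the signal arrays and 12.43 ± 0.20 in the table, also under 2-fold. The hepatocyte markers ALB, TTR, SERPINA1, APOA1, APOB, TF, FGB, AHSG and RBP4 were at the level in all 6 columns.

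Secreted hepatocyte proteins split in both directions. Of 31 kept members of that list, 9 were higher and 7 lower on the signal arrays, with a median difference of 0.38 beside 0.13 over all named genes. Albumin (ALB) lay at 15.07, 15.20 and 15.48 on the signal arrays and at 12.05, 12.19 and 12.69 in the table, 7.65-fold higher on the signal arrays. SERPINA7, which carries thyroid hormone in blood, lay at 12.80, 12.88 and 12.90, against 6.74, 6.73 and 6.85, at least 43.3-fold higher. AHSG, the plasma protein fetuin-A, averaged 14.88 ± 0.11 on the signal arrays and 10.43 ± 0.19 in the table (21.9-fold), and SERPINA3, an acute-phase protease inhibitor, 13.40 ± 0.09 and 8.72 ± 0.07 (25.6-fold). HAMP, the iron hormone hepcidin, was 7.84-fold higher.

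The members on the low side were led by other plasma proteins. Transthyretin (TTR), a carrier of thyroid hormone and retinol-binding protein, lay at 8.85, 8.83 and 8.86 on the signal arrays and at 12.82, 12.66 and 12.78 in the table, a difference of -3.90. SERPING1, the inhibitor of complement C1, was below the level on all signal arrays, at 7.05 ± 0.04, against 11.44 ± 0.26 in the table (at least 16.2-fold lower). KNG1, the kininogen precursor, and SAA1, an acute-phase apolipoprotein, were also below the level on the signal arrays, with bounds of 6.79-fold and 4.22-fold. SERPINA7 and TTR, which both carry thyroid hormone, thus lay on opposite sides.

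Apolipoproteins leaned to the signal arrays. Of 12 kept members 7 (58.3%) were higher and 1 (8.33%) lower, and the median difference was 1.12. APOH, which binds phospholipids, lay at 12.74, 12.68 and 12.99 on the signal arrays and 8.88, 9.15 and 9.47 in the table (12.4-fold). APOA2, of high-density lipoprotein, was 3.43-fold higher, APOB, the core protein of very-low-density lipoprotein, 2.74-fold, and APOA5, a regulator of triglycerides, at least 2.19-fold. The single member on the low side was MTTP, the enzyme that loads lipid onto APOB, at 9.57 ± 0.20 on the signal arrays and 12.18 ± 0.11 in the table, a 6.10-fold difference. APOB and MTTP, which act at the same step of lipoprotein assembly, differed in opposite directions.

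Clotting and complement genes were divided, and fibrinogen stood out. Of 26 kept members 6 were higher and 8 lower, with a median difference of 0.13 that was -0.04 when all 6 columns were quantile-normalized together. FGB, the fibrinogen beta chain, lay at 7.41, 7.54 and 7.65 on the signal arrays and at 14.55, 14.39 and 14.55 in the table, 125-fold lower on the signal arrays. These signal values are close to the detection level, so the size of that fold is uncertain. The 2 kept probes of FGB differed by -6.96 and -3.65, the first being the one used. The alpha chain FGA averaged 10.11 ± 0.04 on the signal arrays and 14.73 ± 0.02 in the table (24.6-fold), and the gamma chain FGG 10.62 ± 0.21 and 14.40 ± 0.04 (13.7-fold). All 3 chains of the one protein were lower. MASP1, a protease of the lectin complement pathway, was at least 6.74-fold lower. The higher members were smaller differences: C8G 3.60-fold, F5 2.92-fold, CFB 2.74-fold and F10 2.57-fold.

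**Figure D2:**
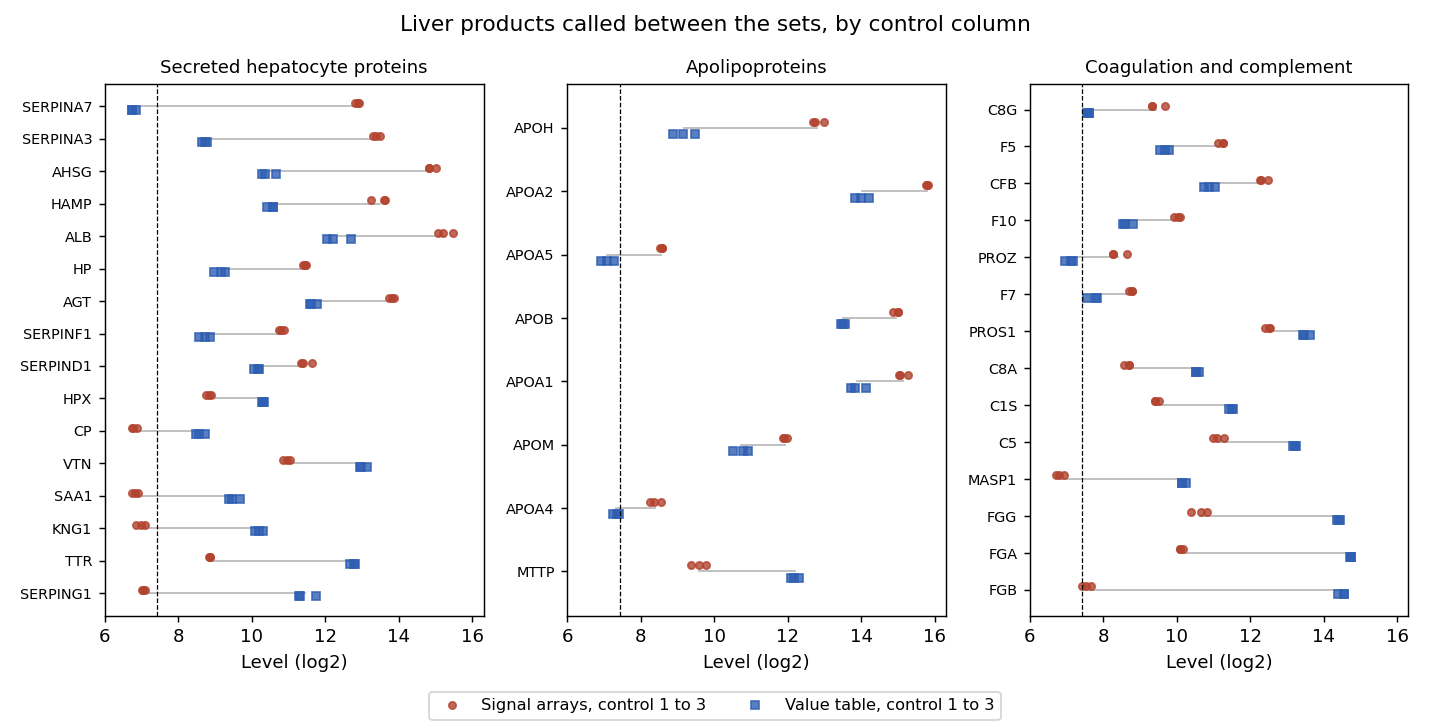
Level (log2, horizontal axis) of each called secreted protein, apolipoprotein and clotting or complement gene in each control column, with circles for the 3 signal arrays, squares for the 3 table columns, a grey line joining the means of the sets and a dashed line at the detection level of 7.42. The 7 called apolipoproteins lie to the right on the signal arrays and MTTP to the left, and the fibrinogen chains FGB, FGA and FGG are at the bottom of the right panel with the table columns above 14.

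Enzymes of nitrogen, amino acid and bile acid metabolism were called in both directions. In the urea cycle and amino acid list, 7 of 22 kept members were higher and 3 lower (7 and 8 with neqc), and the median difference was -0.03. HPD, of tyrosine breakdown, lay at 11.50, 11.56 and 11.70 on the signal arrays and at 7.41, 7.24 and 7.13 in the table (at least 17.9-fold higher). MAT1A, the liver's methionine adenosyltransferase, averaged 11.56 ± 0.29 on the signal arrays and 7.27 ± 0.20 in the table, where 1 of 3 columns was at the level. CPS1, the entry enzyme of the urea cycle, was at least 5.08-fold higher, while OTC, the next enzyme of the cycle, was at least 6.27-fold lower, at 7.35 ± 0.10 on the signal arrays and 10.07 ± 0.30 in the table. PRODH2, of hydroxyproline breakdown, was at least 6.90-fold higher.

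Of 19 kept bile acid and drug metabolism genes, 6 were higher and 3 lower, with a median of 0.74. CYP27A1, an enzyme of the alternative bile acid route, was 5.87-fold higher, FMO5 4.18-fold, CES2 4.06-fold and the sterol exporter ABCG8 at least 3.32-fold. BAAT, which joins bile acids to amino acids, UGT1A1, which conjugates bilirubin, and CYP3A5 were lower by at least 1.82-fold, at least 1.43-fold and 2.07-fold; CYP3A5 was no longer called without signal replicate 3 or without table replicate 1, by the 2-fold and no-overlap rule.

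Of 19 kept hepatocyte transcription factors 2 (10.5%) were higher and 3 (15.8%) lower, with a median of -0.46. NR0B2, a repressor of bile acid synthesis, averaged 10.28 ± 0.05 on the signal arrays and 7.12 ± 0.15 in the table, at least 7.23-fold higher. NR5A2, HHEX and ONECUT1 were lower by 2.81-fold, 2.57-fold and 2.53-fold, ONECUT1 on only some of its probes. FOXA1, FOXA2 and CEBPA, which keep liver genes open and active, differed by 0.09, -0.77 and -0.62 and were not called.

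Oncofetal and progenitor genes were called in both directions. Besides DLK1 and PEG3, HMGA1, a chromatin protein of embryonic and tumour cells, was 2.21-fold higher and the imprinted PEG10 2.17-fold, PEG10 on only some probes. Below the level on all signal arrays were SPINK1, PLAGL1, an imprinted zinc finger protein called on only some of its probes, GOLM1, a Golgi protein used as a liver cancer serum marker, and CDKN1C, an imprinted cell cycle inhibitor. GOLM1 averaged 7.06 ± 0.14 on the signal arrays and 10.28 ± 0.08 in the table (at least 7.27-fold lower). In all, 4 of 22 kept members of the oncofetal list were higher and 5 lower.

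Of 20 kept progenitor and biliary markers, 7 (35.0%) were higher and 8 (40.0%) lower, both shares above those over all named genes. The median difference of the list was 0.64, beside 0.13 over all named genes. CD24, a glycoprotein of tumour-initiating liver cells, lay at 10.28, 10.47 and 9.88 on the signal arrays and at 14.90, 14.96 and 14.98 in the table (26.7-fold lower). CD44, the hyaluronan receptor, lay at 6.58, 6.49 and 6.41, against 11.48, 11.43 and 11.30, at least 15.8-fold lower, with no signal array at the level. PROM1, which encodes CD133, averaged 9.82 ± 0.17 on the signal arrays and 13.90 ± 0.05 in the table (16.9-fold lower), and ALDH1A1, an enzyme of retinoic acid synthesis, 10.98 ± 0.10 and 15.15 ± 0.04 (17.9-fold lower). BICC1, an RNA-binding protein, was at least 18.9-fold lower.

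The progenitor markers on the high side differed by less. LGR5, the R-spondin receptor of stem cells in gut and liver, averaged 9.59 ± 0.22 on the signal arrays and 7.17 ± 0.18 in the table (at least 4.51-fold). ALDH3A1 was 3.26-fold higher, with 2 of 3 table columns at the level, SPP1, or osteopontin, 3.09-fold, and the keratin KRT23 at least 2.54-fold. KRT19, the biliary keratin, lay at 12.78, 12.88 and 11.92 on the signal arrays and 11.48, 11.50 and 11.33 in the table, 2.13-fold higher. EPCAM and SOX9, further markers of that lineage, each differed by 0.64 and were not called.

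Genes of epithelial and mesenchymal character were as evenly divided, with 8 of 26 kept members higher and 9 lower. ACTA2, smooth muscle actin, lay at 12.97, 12.98 and 12.99 on the signal arrays and 6.93, 7.01 and 6.80 in the table, at least 47.1-fold higher. TAGLN, another smooth muscle protein, was 9.44-fold higher, the receptor kinase AXL at least 3.95-fold and SPARC 3.75-fold, with 2 of 3 table columns at the level. Vimentin (VIM), the mesenchymal filament protein, lay at 9.12, 8.87 and 9.09 on the signal arrays and at 13.30, 13.27 and 13.10 in the table, 18.3-fold lower. TPM2 was 17.3-fold lower, the intestinal cadherin CDH17 at least 16.5-fold and CAV1, the caveola protein, at least 10.2-fold on only some of its probes.

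**Figure D3:**
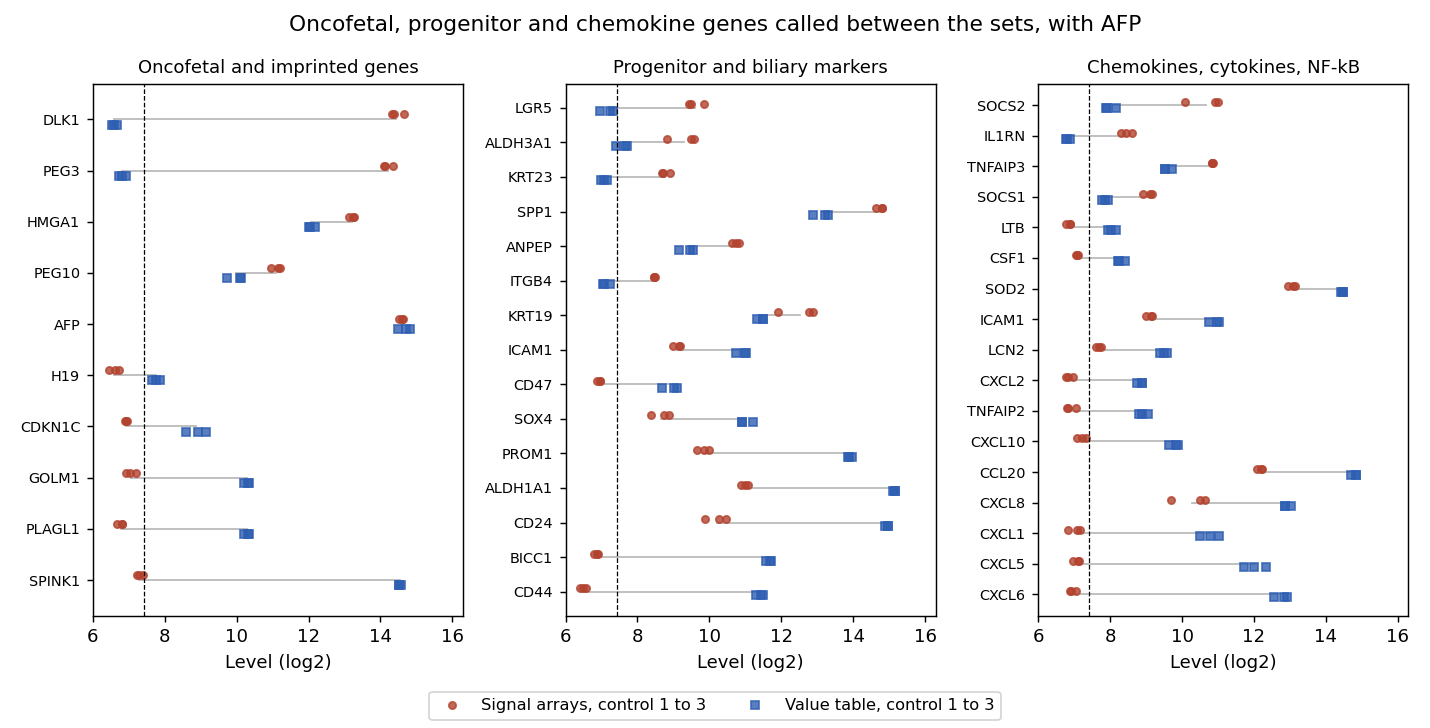
Level (log2, horizontal axis) in each control column of the called oncofetal and imprinted genes with AFP, of the called progenitor and biliary markers, and of the called chemokine, cytokine and NF-kB genes; circles are the 3 signal arrays, squares the 3 table columns, grey lines join the means and the dashed line is the detection level of 7.42. DLK1 and PEG3 head the left panel, CD24, BICC1 and CD44 end the middle one, and CXCL1, CXCL5 and CXCL6 end the right one with the signal arrays below the detection level.

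Of 29 kept beta-catenin and WNT genes 18 (62.1%) were higher and 2 (6.90%) lower, with a median difference of 1.49. Of the 18, 8 were at the level in no table column and so had to differ once kept. Among the 17 members at the level in all 6 columns, 8 were higher and 1 lower, with a median of 0.77. Beta-catenin itself, CTNNB1, lay at 10.56, 10.70 and 10.86 on the signal arrays and 10.68, 11.09 and 11.29 in the table, and the columns overlapped.

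Feedback inhibitors of the pathway led the list. NKD1, which binds Dishevelled, lay at 13.14, 13.12 and 13.05 on the signal arrays and at 6.85, 6.67 and 6.87 in the table, at least 51.3-fold higher. NOTUM, a secreted enzyme that removes the lipid of WNT proteins, averaged 12.11 ± 0.11 on the signal arrays and 7.21 ± 0.03 in the table (at least 25.7-fold). AXIN2, a scaffold of the beta-catenin destruction complex, lay at 12.89, 12.84 and 12.87 on the signal arrays and at 8.18, 8.27 and 8.17 in the table, both above the level (25.3-fold). No column of one set came near a column of the other for any of the 3. The secreted antagonist DKK4 averaged 11.22 ± 0.09 on the signal arrays and 6.60 ± 0.09 in the table (at least 13.9-fold), and DKK1 differed by 2.61. The ligases RNF43 and ZNRF3, which remove WNT receptors, differed by 1.97 and 2.15.

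Transcription factors of the list were higher too. SP5, a zinc finger repressor, differed by 3.83, TBX3 by 2.69 on some of its probes, and LEF1, a DNA partner of beta-catenin, by 1.49. TNFRSF11B, the decoy receptor osteoprotegerin, and FZD7, a WNT receptor, were the 2 lower members. TNFRSF11B averaged 6.59 ± 0.02 on the signal arrays and 10.52 ± 0.12 in the table (at least 8.59-fold), and FZD7 was 6.20-fold lower on only some of its probes. GLUL, the glutamine synthetase gene and a classic target in the liver, lay at 7.56, 7.48 and 7.67 on the signal arrays and at 7.82, 7.81 and 7.56 in the table. It was not called, but its values were close to the detection level in both sets, where a difference could hardly be seen.

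The upstream sequences of the higher WNT genes were searched for the core that TCF and LEF factors bind, TCAAAG on the plus strand or CTTTGA for its reverse complement, since beta-catenin acts through these factors. RefSeq promoters (build GRCh38.p14) were matched for 9 of the 18 genes, and 2 of them, SP5 and DKK1, hold at least 1 core in the 250 bases before the start site. Over all 35116 promoters of the table, 11.2% hold a core and 0.0655% hold 3 or more. These shares count promoters, while the 2 of 9 counts genes. The cut at 3 equals the number in SP5, so that share is no test of it. Both windows are on the plus strand of their chromosome, SP5 at chr2:170715087-170715336 and DKK1 at chr10:52314031-52314280, and they are shown because they carry these cores, in capitals.
SP5: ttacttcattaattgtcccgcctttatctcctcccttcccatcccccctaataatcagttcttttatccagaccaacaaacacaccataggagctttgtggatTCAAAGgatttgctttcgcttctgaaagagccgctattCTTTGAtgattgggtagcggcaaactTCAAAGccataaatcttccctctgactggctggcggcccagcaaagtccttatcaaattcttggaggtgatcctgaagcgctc
DKK1: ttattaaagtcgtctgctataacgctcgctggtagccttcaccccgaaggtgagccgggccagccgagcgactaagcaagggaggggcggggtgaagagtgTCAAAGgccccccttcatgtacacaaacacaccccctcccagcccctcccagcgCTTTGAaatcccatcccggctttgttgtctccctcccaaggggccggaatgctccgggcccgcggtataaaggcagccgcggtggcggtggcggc
The cores of SP5 begin 147, 109 and 83 bases before the start site, and those of DKK1 at 149 and 95. A match of these letters is a description of the sequence and does not show that a factor binds there; for the other 7 promoters it says only that these letters are not in the window.

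Targets of p53, the DNA damage and stress factor, were higher on the signal arrays where they were called. Of 23 kept members 10 (43.5%) were higher and 0 lower, with a median of 0.84, and 4 of the 10 were at the level in no table column. CDKN1A, which encodes the cell cycle inhibitor p21, lay at 13.79, 13.83 and 13.36 on the signal arrays and at 10.02, 9.97 and 10.27 in the table (11.9-fold). GDF15, a stress cytokine, lay at 13.97, 14.03 and 13.28 on the signal arrays and 11.19, 10.87 and 10.69 in the table (7.20-fold). PHLDA3, an inhibitor of AKT, and SPATA18, of mitochondrial quality control, were at least 4.82-fold and at least 3.74-fold higher. Of the other members, MDM2, the ligase that degrades p53, differed by 0.75 and BBC3, which triggers apoptosis, by 0.05, and neither was called.

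Output genes of the RAF-MEK-ERK cascade, the pathway that sorafenib targets, differed between the solvent controls of the sets. Of 20 kept members 9 (45.0%) were higher and 2 lower, with a median of 0.93, and for no called member was a set without detection. IER3, an early response gene, lay at 14.28, 14.28 and 13.92 on the signal arrays and at 11.64, 11.36 and 11.28 in the table (6.63-fold). The Sprouty inhibitors SPRY1 and SPRY4 were 4.16-fold and 4.44-fold higher, SPRY4 on some of its probes, and cyclin D1 (CCND1) 2.94-fold. The phosphatase gene DUSP6 differed by 1.14 and was called higher, while DUSP5 lay at 11.83, 11.80 and 10.53 on the signal arrays and 13.14, 12.98 and 13.15 in the table, 3.26-fold lower. The members of this list did not all differ the same way even within the DUSP family.

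**Figure D4:**
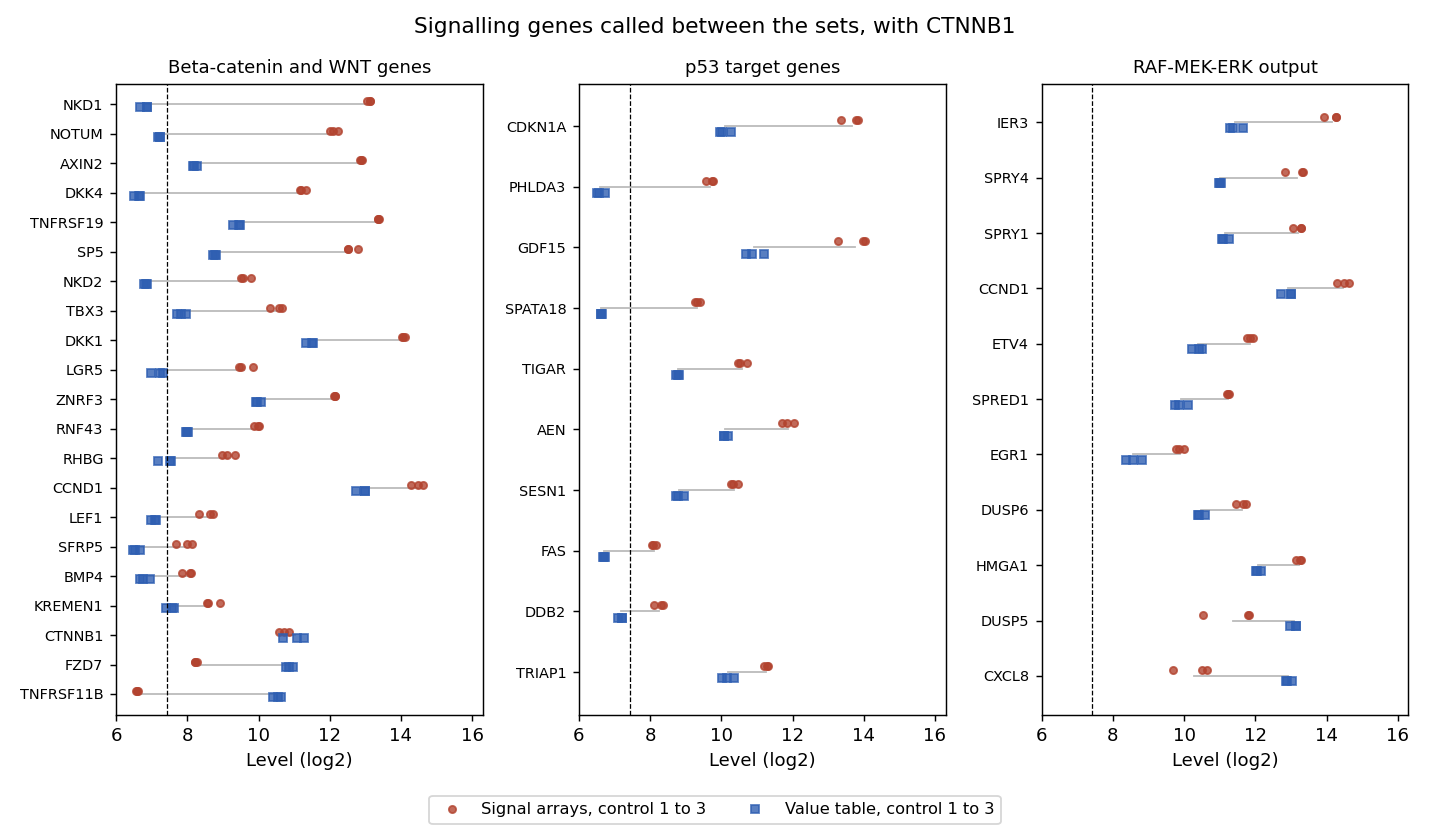
Level (log2, horizontal axis) in each control column of the called beta-catenin and WNT genes with CTNNB1, the called p53 targets and the called RAF-MEK-ERK output genes; circles are the 3 signal arrays, squares the 3 table columns, grey lines join the means and the dashed line is the detection level of 7.42. NKD1, NOTUM and AXIN2 head the left panel, the CTNNB1 columns of the sets overlap, and all 10 p53 targets shown lie to the right on the signal arrays.

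Other growth pathways were less one-sided. Of 29 kept receptor tyrosine kinase genes and ligands 9 were higher and 7 lower (7 and 9 with neqc). IGFBP4, which binds insulin-like growth factors, lay at 12.09, 12.19 and 11.61 on the signal arrays and at 7.31, 7.45 and 7.51 in the table (23.3-fold higher, with 2 of 3 table columns at the level), and TGFA, a ligand of the EGF receptor, was at least 4.44-fold higher. EGFR itself was 2.41-fold lower, its ligand EGF at least 4.09-fold and FGF19, a growth factor of bile acid control, at least 3.50-fold. Of 24 kept TGF-beta, BMP and activin genes 7 were higher and 2 lower; BMP6, the inducer of hepcidin, was at least 3.35-fold higher and BMP2 at least 18.8-fold lower, at 6.91 ± 0.05 on the signal arrays and 11.65 ± 0.19 in the table. NOTCH1 was 3.67-fold lower, among 15 kept Notch genes of which 3 were higher and 1 lower (2 and 5 with neqc). Of 22 kept YAP and TEAD targets 4 were higher and 1, NT5E, was lower, by at least 5.89-fold, while with neqc 3 were higher and 5 lower. Of the Hedgehog genes 1 was kept and 0 were called.

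Of 28 kept chemokine, cytokine and NF-kB genes 13 (46.4%) were lower and 4 (14.3%) higher on the signal arrays, with a median of -0.91, and 9 were at the level in no signal array. Among the 17 at the level in all 6 columns, 5 were lower and 3 higher, with a median of -0.31. CXCL6, a neutrophil attractant, lay at 7.06, 6.92 and 6.88 on the signal arrays and at 12.55, 12.83 and 12.91 in the table, at least 40.6-fold lower. CXCL5 and CXCL1, of the same cluster, were at least 24.2-fold and at least 10.2-fold lower. CXCL8 was detected in both sets, at 10.49, 10.63 and 9.70 on the signal arrays and 13.04, 12.88 and 12.87 in the table (6.31-fold). The called chemokines CCL20, CXCL1, CXCL2, CXCL5, CXCL6, CXCL8 and CXCL10 were all lower. SOCS2, a feedback inhibitor of cytokine receptors, was 6.44-fold higher, and TNFAIP3, an NF-kB inhibitor, 2.38-fold.

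Interferon and antigen presentation genes were more often higher, with 12 of 34 kept members (35.3%) higher and 1 lower, or 8 and 5 with neqc. The median was 0.38, and -0.14 with neqc. No table column reached the level for 6 of the 34. Among the 22 at the level in all 6 columns, 6 were higher and 1 lower. Their median was 0.16, beside 0.15 over all such named genes. CD74, the chaperone of class II molecules, averaged 11.93 ± 0.05 on the signal arrays and 6.93 ± 0.07 in the table (at least 22.7-fold), and BST2, or tetherin, 11.23 ± 0.04 and 7.04 ± 0.10 (at least 14.0-fold). The class I gene HLA-B was at least 4.95-fold higher. The 4 genes TAP2, PSMB8, TAP1 and PSMB9, which cut and transport peptides for class I molecules and lie next to each other on chromosome 6, differed by 1.14 to 1.86 and were all called higher. IFI6 was 4.26-fold lower. IFIT1, IFIT2 and IFIT3, typical interferon-induced genes, differed by -0.69, -0.89 and -0.73 and were not called.

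Of 33 kept genes of glucose transport, glycolysis and hypoxia 8 were higher and 8 lower. No table column reached the level for 7 of the 33, and no signal array for 2. Among the 23 at the level in all 6 columns, 1 was higher and 5 lower, with a median of -0.04, so the even split rests on undetected genes. Beside SLC2A3, the phosphofructokinase PFKP averaged 11.81 ± 0.36 on the signal arrays and 7.20 ± 0.05 in the table (at least 20.9-fold higher), while its muscle form PFKM averaged 7.76 ± 0.27 and 10.33 ± 0.13 (5.93-fold lower, with 2 of 3 signal arrays at the level). The enolase ENO2 was at least 14.8-fold higher, and the lactate dehydrogenase LDHB at least 15.4-fold lower, at 6.95 ± 0.13 on the signal arrays and 11.37 ± 0.06 in the table. The probe of SLC2A3 may also read its near copy SLC2A14.

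Genes of detoxification were called in both directions, with 9 of 32 kept members higher and 8 lower. The aldo-keto reductase AKR1C3 lay at 14.92, 14.95 and 14.87 on the signal arrays and at 8.12, 8.20 and 8.09 in the table (109-fold), and AKR1C2 was 28.3-fold higher; these near-identical genes may share signal. GSTP1, the pi-class glutathione transferase, lay at 8.89, 8.55 and 8.51 on the signal arrays and 15.23, 15.29 and 15.25 in the table (97.2-fold lower). GSTT1 was at least 30.8-fold higher and GSTA1 15.9-fold, a gene with close copies. ME1, malic enzyme, was at least 20.1-fold lower and GCLM, of glutathione synthesis, 3.54-fold. Of 10 kept metallothioneins, small metal-binding proteins whose probes can read one another, 5 were lower and 0 higher, with a median of -1.03; MT1M averaged 8.69 ± 0.33 on the signal arrays and 12.71 ± 0.10 in the table.

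Cancer-testis antigens, genes of the germ line that tumours switch on, were mostly below the level on the signal arrays. Of 23 kept members 14 (60.9%) were lower and 2 higher, with a median of -1.42, and 18 reached the level on no signal array. In the 4 members at the level in all 6 columns the median was 0.79, so the sign of that median rests on the undetected genes. MAGEA10 averaged 6.85 ± 0.09 on the signal arrays and 11.31 ± 0.10 in the table (at least 14.8-fold lower), and MAGEC2 7.17 ± 0.10 and 11.03 ± 0.04 (at least 12.2-fold). MAGED1, a ubiquitous member of the wider family, went the other way, at 14.04, 14.01 and 14.02 on the signal arrays and 8.40, 8.50 and 8.42 in the table, a 48.0-fold difference.

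Of 18 kept hepatitis C virus entry factors and tetraspanins, 5 were lower, CD81 by the largest amount, and 0 were higher. CLDN1, a tight junction protein, was 4.28-fold lower and TSPAN8 4.49-fold, while SCARB1, the HDL receptor, differed by 0.44 and was not called. Protein disulfide isomerases, which form disulfide bonds in the endoplasmic reticulum and which the study's title names, had 1 of 15 kept members called, ERP27, which was 3.80-fold higher, and a median difference of 0.63. P4HB, the main enzyme of the family, lay at 14.09, 14.06 and 13.97 on the signal arrays and at 13.57, 13.60 and 13.64 in the table, a 1.35-fold difference.

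Genes in common use for normalization and cytosolic ribosomal protein genes differed little. Of 24 kept genes in common use for normalization, 0 were called, with differences from -0.80 to 0.82, and GAPDH averaged 14.40 ± 0.06 on the signal arrays and 14.19 ± 0.06 in the table. Of 47 kept cytosolic ribosomal protein genes, 1 was called, RPL37, 2.31-fold lower. Of 39 kept replication and mitosis genes 6 (15.4%) were higher and 2 (5.13%) lower. The neighbouring inhibitor genes CDKN2A and CDKN2B were 4.26-fold and 2.45-fold lower, CDKN2A with 2 of 3 signal arrays at the level. CCND2 was at least 4.25-fold higher. Of 35 markers of stromal, endothelial and immune cells on the array, 9 to 10 were at the level on a signal array and 6 to 9 in a table column, and their summed linear level was 25599 to 27277 on the signal arrays, against 18375 to 20161 in the table. Without ACTA2 the sums were 17570 to 19140 on the signal arrays and 18264 to 20032 in the table, and their ranges overlapped. Of the 12 kept markers 2 (16.7%), ACTA2 and CD8A, were higher and 3 (25.0%) lower. Among the lower ones were LUM, of the stroma, and PECAM1, of endothelium, by at least 6.49-fold and at least 4.49-fold. The part of such markers in the other differences was not tested.

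Shares of called genes differed between chromosomes; these are descriptions without a test. Named genes of chromosomes 10, 17, 16, 2 and 20 had the highest median differences, of 0.55, 0.51, 0.50, 0.49 and 0.46, beside 0.13 over all named genes. On chromosome 16, 23.2% of kept genes were higher and 4.31% lower, and on chromosome 17 the shares were 21.8% and 2.15%. Chromosome 4, with a median of -0.21, had 7.96% of its genes higher and 19.4% lower, and the X chromosome, with a median of -0.11, 10.2% and 22.1%. Each of these medians is under the 2-fold difference of a call.

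**Figure D5:**
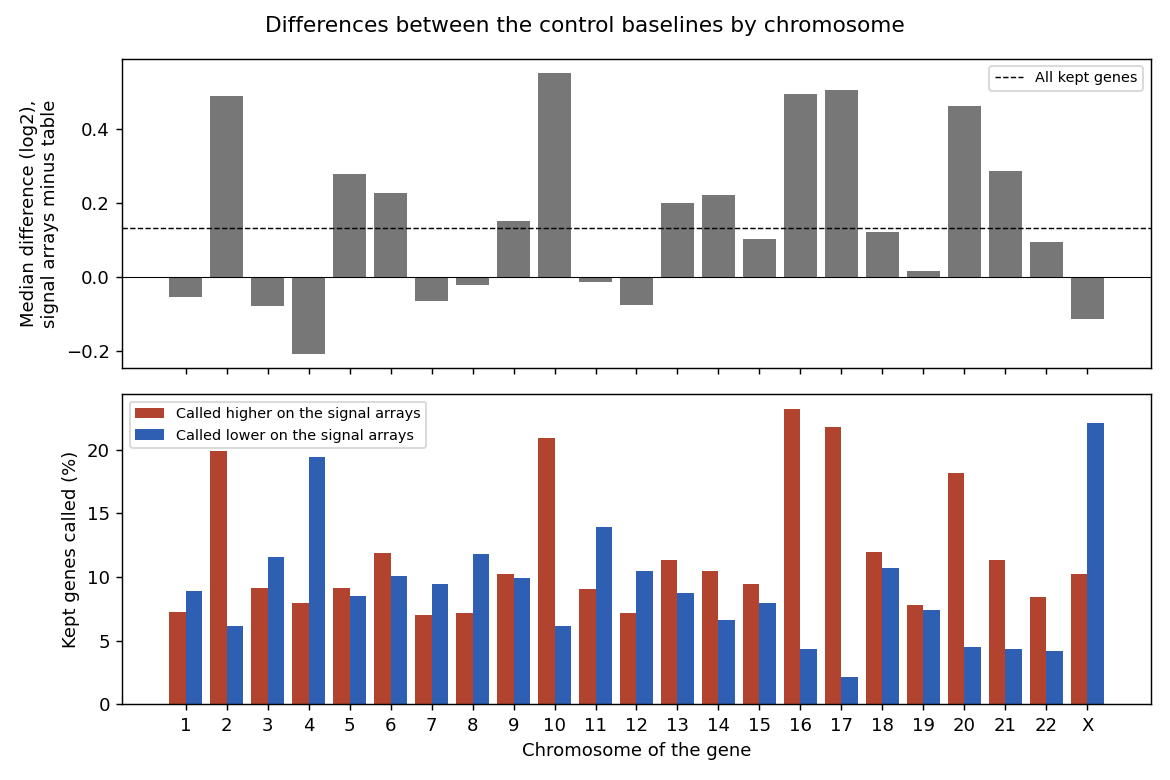
Median difference (log2, signal arrays minus table, upper panel) and percent of kept named genes called higher or lower on the signal arrays (lower panel) for each of 23 chromosomes; the dashed line is the median over all kept named genes, 0.13. Chromosomes 2, 10, 16, 17 and 20 have the tallest bars of genes called higher, and chromosomes 4 and X of genes called lower.

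Neighbouring genes were called together in places. The longest run of consecutive kept genes called the same way, 7 genes on chromosome 11 from KDM2A to PPP1CA, was lower, with differences from -2.76 to -1.24. A run of 6 genes nearby, CORO1B, TMEM134, PITPNM1, CDK2AP2, GSTP1 and NDUFV1, was lower as well, with differences from -6.60 for GSTP1 to -1.31 and a median of -1.70. In a window of 31 kept genes from BRMS1 to GSTP1, 24 genes were lower and 2 higher, with a median of -1.43. Its size was chosen after the values were seen, and its place because it had the lowest median on chromosome 11. Over all named genes 9.11% were lower. The fibrinogen genes FGB, FGA and FGG lie in a run of 5 lower genes on chromosome 4 with PLRG1 and TMEM131L. On chromosome 20 the 6 genes ELMO2, SLC13A3, TP53RK, SLC2A10, ZMYND8 and SULF2 were all higher, and on the X chromosome the 6 genes CASK, MAOA, MAOB, NDP, FUNDC1 and KDM6A were all lower.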

How the data were processed

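RNA of the 3 DMSO controls was purified on spin columns with a DNase step and turned into biotin-labelled cRNA for the beadchip, per the labels' protocols. The authors deposited probe signals as intensity on a linear scale, named non-normalized, with a detection p-value beside each, per the file headers. The authors deposited the value table with no unit named; it was taken as log2 values because their range and median nearly equal those of log2 signals, and its columns share a single distribution, as quantile normalization leaves them. How the authors normalized the deposited log2 values is unknown. For the scanner software, the normalization tool and any background subtraction, the sources used here give nothing. Since the sets rank probes differently, the table is not a rescaling of the signals.

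Groups and control numbers came from the sample titles. Control signals were put on a log2 scale and quantile-normalized with limma 3.58.1 in R 4.3.3, without background subtraction; the table was used as deposited. Median raw signals were 135 to 145, and 16537 to 17476 probes were detected per signal array. The number of arrays limits the precision. Correlations of same-numbered columns' deviations from their set means were 0.14, -0.11 and 0.26, so the numbers do not pair the columns. No columns were identical. Symbols came from the platform annotation: 30113 probes had 1 symbol, 8 several and 17202 none, and 30074 matched a current symbol by Entrez identifier. A bound takes, per column of the dim set, the higher of the detection level and the probe's own value.

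Genes were named by rule: the 15 largest called differences in each direction, the 4 largest in each direction in each of 29 lists, and ALB, AFP, CD81, SLC2A3, CTNNB1 and P4HB. Other genes named beside them, as list members that were not called, label checks, promoter matches or members of a run, were picked with their values seen. The members, lists and call rule were chosen with earlier results of these data known. A few genes are not reported here. The difference and the call rule were checked on simulated columns with known shifts, and the other steps were not. Alternatives were background correction with neqc, joint quantile normalization, median centring, other filters, a 4-fold threshold, averaging all probes of a gene, and leaving out each column.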

Additional observations from a re-analysis of the deposited data

How the results depend on the processing

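The numbers of probes called higher and lower and the median absolute difference were recomputed under each alternative. With neqc correction of the signals alone, which leaves the table uncorrected, 4240 probes were lower and the median absolute difference was 0.64; quantile normalization of all 6 columns after neqc, chosen after seeing the data, gave 1990 higher and 2064 lower. With no filter the median absolute difference was 0.12, over probes most of which are below the detection level. Requiring the level in all 6 columns, which tests fewer probes, left 1182 higher and 658 lower, and a 4-fold threshold 466 and 489. Joint quantile normalization gave 1498 and 1631, and median centring 1742 and 1467. Leaving out each column in turn gave 1836 to 1870 higher, 1390 to 1417 lower and a median absolute difference of 0.407 to 0.425. Of 169 called genes named by the rule, 165 kept their call with neqc (CD8A, RFNG, SOCS1 and WWTR1 did not), 168 with joint quantile normalization (PEG10), 166 when all probes of a gene were averaged (HLA-F, MAGED2 and PEG10) and 167 without table replicate 1 (CYP3A5 and PEG10), and 0 changed direction. The sign of the list median was kept in 22 of 29 lists with neqc, in 24 with joint quantile normalization and in 24 with the level in all 6 columns. No paired analysis was possible because the differences between the sets come from no test that could hold a block; the deviations of same-numbered columns correlated at 0.14, -0.11 and 0.26. Genes near the detection level have differences that are bounded by it, and the cause of the differences between the sets was not tested.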
